A study of Mus musculus with 6 samples.

Results

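Genes for the synthesis, binding and action of retinoids were followed in cultured mouse lung fibroblasts with intact Atf4 (LFBwt/wt) and with deleted Atf4 (LFBD/D). The set holds 9 genes taken by name, namely the retinal dehydrogenases Aldh1a1, Aldh1a2 and Aldh1a3, the retinol carrier Rbp4 and its receptor Stra6, the retinoic acid binding proteins Crabp1 and Crabp2, the receptor Rarb, and Rarres2, a gene first named for its response to a retinoid. All 9 were found among the 30098 genes that the array named through a transcript cluster of their own, where a transcript cluster is a group of probes summarised as 1 value. Each of the 9 had a single such cluster.

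Retinoids are the active forms of vitamin A. Retinol travels in blood bound to Rbp4, enters cells in part through Stra6, and is oxidised first to retinal and then, by the Aldh1a enzymes, to retinoic acid. Retinoic acid is held in the cytosol by the Crabp proteins and acts in the nucleus through dimers of retinoic acid receptors and retinoid X receptors, which bind short repeated motifs in the DNA. In the lung, retinoic acid made by mesenchyme and mesothelium is needed for the lung bud to form, and some lung fibroblasts store retinol as esters. ATF4, the transcription factor that Atf4 encodes, acts in the integrated stress response and drives genes of amino acid synthesis and transport when translation is restrained.

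Each genotype had 3 arrays, all from cultures at passage 2 from mice of both sexes. In the study's methods the young adult mice of both genotypes carried a tamoxifen-activated Cre at the ubiquitously expressed Rosa26 locus, Atf4 was floxed only in those that became Atf4D/D, both received tamoxifen, and both kinds of culture were grown with hydroxytamoxifen. Lung tissue of several mice was digested together and fibroblasts were obtained by growth in culture, so other adherent lung cells could persist. Whether the replicates of a genotype came from different pools is not said. The p-values therefore hold for the spread among these cultures only, and with so few arrays precision is low.

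Arrays correlated at 0.997 to 0.998 within a genotype and at 0.988 to 0.993 between genotypes, with array medians of 4.87 to 4.91 in log2 units. Atf4 was at 8.67, 8.95 and 8.73 in LFBwt/wt and at 7.73, 7.49 and 7.48 in LFBD/D, which matched each label. Probes outside the deleted part could still give signal, and the paper calls deletion by tamoxifen efficient but incomplete. The part of either in the signal left in LFBD/D was not tested. A marker is said to rise or fall if it met the calling rule given below, as 6.88% of all named genes did. Of 12 fibroblast markers 6 fell and 0 rose. Among them the type I collagen genes Col1a1 and Col1a2 fell but were bright in both genotypes, Col1a1 at 16.91 ± 0.10 and 14.69 ± 0.64 and Col1a2 at 16.23 ± 0.14 and 13.77 ± 0.61 (mean log2 value ± SD, n = 3 each, LFBwt/wt first, as in all such pairs of values). Leukocyte markers rose in 15 of 18 cases, with a mean over the list of 8.89 to 9.27 in the LFBwt/wt arrays and of 11.11 to 11.49 in the LFBD/D arrays. Ptprc, the pan-leukocyte antigen CD45, was at 8.14 ± 0.41 and 11.15 ± 0.34, and Cd68, a macrophage protein, at 14.30 ± 0.37 and 16.73 ± 0.16. Of 13 mesothelial markers 11 fell and 1 rose, with a mean over the list of 8.37 to 8.91 in LFBwt/wt and of 6.17 to 6.54 in LFBD/D. Msln (mesothelin) was at 7.70 ± 0.50 and 5.10 ± 0.10, and Upk3b, a uroplakin of mesothelium, at 12.41 ± 0.32 and 7.68 ± 0.70. In the other lists 3 of 9 endothelial, 1 of 9 epithelial and 1 of 7 adipocyte markers rose and 1 of 9 mural markers fell. The endothelial adhesion protein Pecam1 rose from 5.57 ± 0.22 to 6.20 ± 0.24, the epithelial cadherin Cdh1 rose from 5.25 ± 0.11 to 6.36 ± 0.24, and Epcam, an epithelial surface protein, was below the array medians at 4.14 ± 0.06 and 4.22 ± 0.09. Cdh5, the endothelial cadherin, did not pass at 6.62 ± 0.49 and 7.75 ± 0.52, nor did smooth muscle actin, Acta2, at 17.68 ± 0.08 and 17.68 ± 0.15, or smooth muscle myosin, Myh11, at 10.57 ± 0.45 and 10.08 ± 0.83. These lists move with genotype in the same arrays as every retinoid gene below, and their part in those results was not tested. In such bulk RNA, fewer cells of a type and less RNA per cell cannot be told apart.

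**Figure D1:**
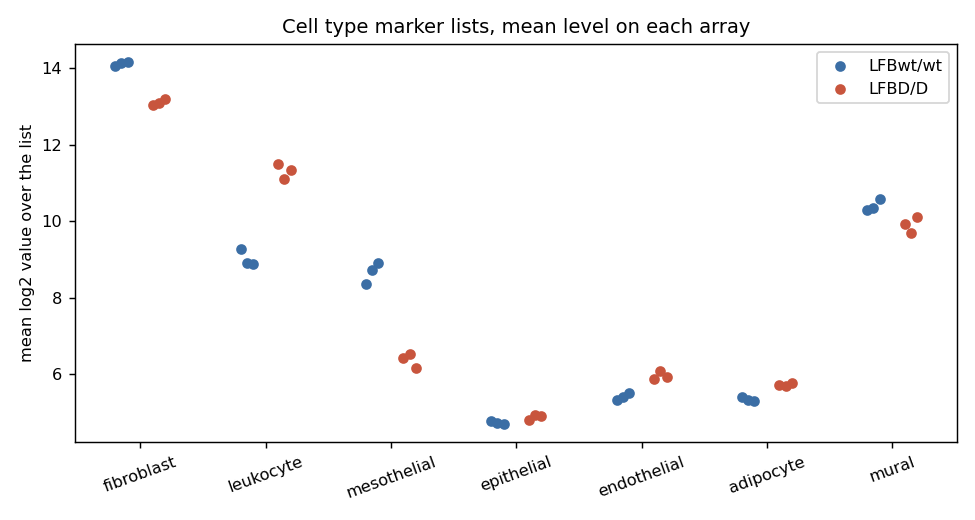
Mean log2 value over each list of cell type markers (y axis) on each of the 3 arrays of LFBwt/wt (blue) and LFBD/D (red), with 1 point per array and the lists along the x axis. Leukocyte markers lay at 8.89 to 9.27 in LFBwt/wt and at 11.11 to 11.49 in LFBD/D, and mesothelial markers at 8.37 to 8.91 and at 6.17 to 6.54.

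The 2 genotypes were set side by side to learn how loss of Atf4 alters the transcripts of these cells. Among the retinoid genes, Rarb rose 2.17-fold in LFBD/D, the retinal dehydrogenases Aldh1a1 and Aldh1a2 fell 1.81-fold and 1.5-fold, and the other 6 did not pass the threshold. To be called, a cluster needed both a fold change above 1.5 and a limma p that was no higher than 0.05 after adjustment over all 65956 clusters. By this rule 4.85% of all clusters were called, 2.28% higher and 2.57% lower, and 6.88% of the named genes, 3.92% higher and 2.96% lower. The 9 members were chosen with earlier results of these arrays known, so their share of 33.3% is a description. Their median log2 difference was −0.05, against 0.00 over all clusters. Of the 9, 5 had values in one genotype that lay wholly outside the range of the other, where this held for 30.1% of all clusters and 37.7% of named genes. The same 5 had an adjusted p of at most 0.05, which 13% of all clusters and 18.3% of named genes had, and of them Rbp4 and Crabp2 missed the fold threshold.

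**Figure D2:**
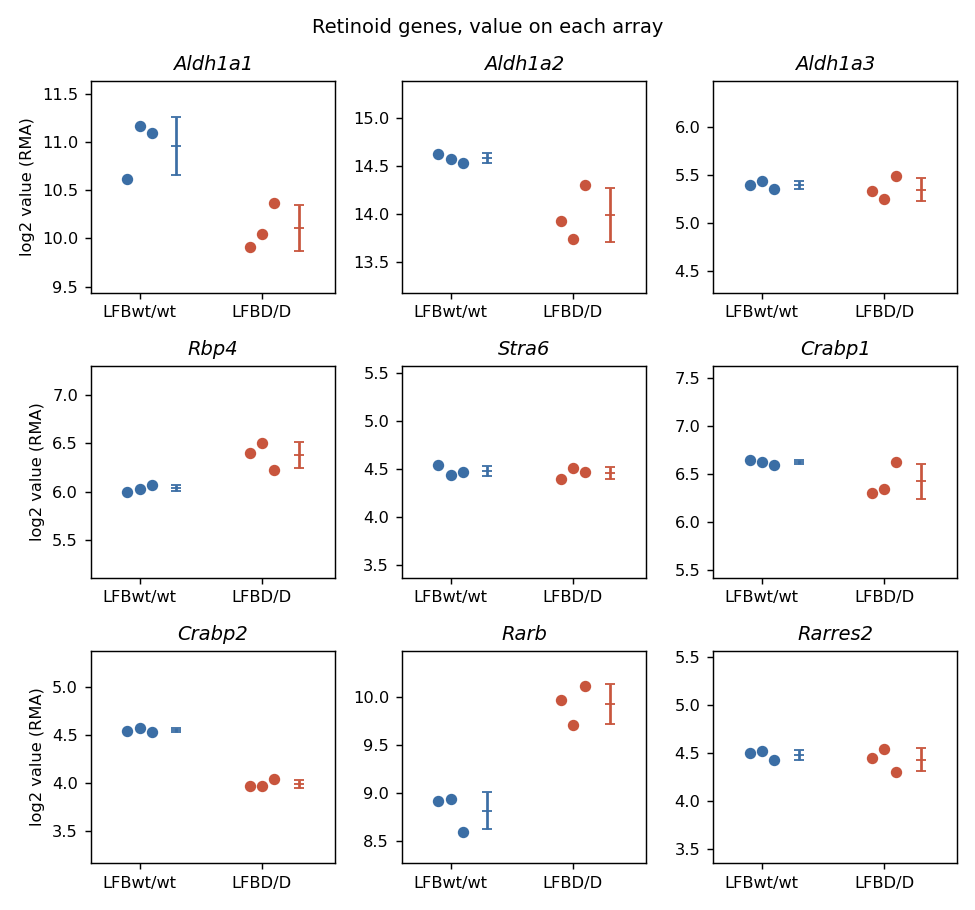
Deposited log2 value (y axis, spanning the same range of log2 units in every panel) of each retinoid gene on the 3 arrays of LFBwt/wt (blue) and LFBD/D (red), with the mean and SD beside the points. The groups are apart for Aldh1a1, Aldh1a2, Rbp4, Crabp2 and Rarb and overlap for Aldh1a3, Stra6, Crabp1 and Rarres2.

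Rarb encodes the beta form of the retinoic acid receptor, and its own transcription is a textbook response to retinoic acid. The element through which this happens lies in its promoter, shown here because Rarb was the one member that rose. The 250 bases before the RefSeq start of Rarb (chr14:16575477-16575726, minus strand, GRCm38.p6) are printed 5′ to 3′, with capitals for a DR5 match, and the same stretch of Cyp26a1 (chr19:37697558-37697807, plus strand) follows for comparison. Cyp26a1 encodes an enzyme that breaks down retinoic acid and is itself a classical target of it.
Rarb: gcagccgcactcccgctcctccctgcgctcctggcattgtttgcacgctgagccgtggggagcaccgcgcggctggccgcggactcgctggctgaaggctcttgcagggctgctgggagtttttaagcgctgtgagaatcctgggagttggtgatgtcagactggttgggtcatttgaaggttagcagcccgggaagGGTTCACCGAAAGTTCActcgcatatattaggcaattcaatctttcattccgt
Cyp26a1: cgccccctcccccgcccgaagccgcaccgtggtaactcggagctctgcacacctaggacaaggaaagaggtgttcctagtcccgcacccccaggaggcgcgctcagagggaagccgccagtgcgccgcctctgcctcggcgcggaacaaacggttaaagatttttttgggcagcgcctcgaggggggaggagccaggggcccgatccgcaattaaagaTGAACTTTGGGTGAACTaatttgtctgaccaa
DR5 stands for a direct repeat of 2 half-sites with 5 bases between them, searched on both strands, where a half-site is AGGTCA or one of its variants, which are GGGTCA and then AGTTCA and finally GGTTCA. In Rarb the match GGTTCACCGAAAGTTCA runs from 53 to 37 bases before the start, and in Cyp26a1 the match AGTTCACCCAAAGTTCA lies on the opposite strand, from 32 to 16 bases before it. A match is a description of the letters and not a site shown to be used. DR5 was found in 29 of 32851 RefSeq windows of this length, or 0.0883%, and DR2, the same repeat with 2 bases between, in 0.174%.

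Rarb was at 8.92, 8.94 and 8.60 in the LFBwt/wt arrays and at 9.97, 9.71 and 10.12 in the LFBD/D arrays. All LFBD/D values lay above all LFBwt/wt values, with replicate 3 the lowest of LFBwt/wt and the highest of LFBD/D. The group means were 8.82 ± 0.19 and 9.93 ± 0.21, a log2 difference of 1.12 (s.e. 0.13, 95% interval 0.81 to 1.43, adjusted p 0.00194 in limma). The call held when each array was left out in turn, with a difference of 1.01 to 1.23 and an adjusted p of 0.00198 to 0.0102. It ended at an adjusted p of 0.0502 in the methods' t-test, which takes each cluster's variance from that cluster alone. The study names that test in its general statistics section and not in its array methods. The call also ended in limma's test against a fold change of 1.5, at an adjusted p of 0.131.

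Cyp26a1, with the same kind of repeat, was at 3.94 ± 0.05 and 3.94 ± 0.04, below the array medians, with a log2 difference of 0.00 (95% interval −0.13 to 0.13). Of 28 genes with a DR5 match before a start, 13 were named by a cluster of their own, and 3 of these were called, or 23.1% against 6.88% of all named genes. They were Rarb itself, Blvrb, a biliverdin reductase that rose by 0.86 in log2 units (s.e. 0.08), and Tnfsf13b, a B cell survival factor that fell by 0.70 (s.e. 0.16). Blvrb and Tnfsf13b were chosen for mention once their values were known. The repeat is shown because Rarb rose, so a share that counts Rarb is a description only. Of 15 such genes with a DR2 match 1 was called, which is 6.67%.

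The other retinoic acid receptors and their partner did not pass. Rarg, the gamma form, was at 8.88 ± 0.03 in LFBwt/wt and 8.40 ± 0.21 in LFBD/D, which gives −0.48 (adjusted p 0.0237 in limma), under the fold threshold. Rxra, a dimer partner of the receptors, differed by 0.30 (adjusted p 0.0142 in limma), also under it, and Rara, the alpha form, by −0.07 (95% interval −0.22 to 0.08). The differences between Rarb and these receptors were not tested.

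Retinal is turned into retinoic acid by the Aldh1a enzymes, of which Aldh1a2 is the main one of the embryo. Aldh1a1 was at 10.62, 11.17 and 11.10 in LFBwt/wt and at 9.91, 10.05 and 10.37 in LFBD/D. Even the highest LFBD/D array, replicate 3, lay below the lowest LFBwt/wt array, replicate 1, so the groups did not overlap. The means were 10.96 ± 0.30 and 10.11 ± 0.24, a log2 difference of −0.85 (s.e. 0.17, 95% interval −1.25 to −0.45, adjusted p 0.0173 in limma). The call ended without replicate 2 or 3 of LFBwt/wt (log2 difference −0.75 and −0.78, adjusted p 0.0653 and 0.0669), without replicate 1 or 2 of LFBD/D (−0.75 and −0.82, adjusted p 0.0558 and 0.0506), in the methods' t-test (adjusted p 0.134) and in the test against a fold change of 1.5.

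Aldh1a7, a mouse gene closely related to Aldh1a1, was at 5.95 ± 0.17 and 5.57 ± 0.11, a difference of −0.38 (95% interval −0.61 to −0.14, adjusted p 0.0484 in limma) that is under the fold threshold. Probes of such relatives can share target, and which probes do so here was not examined, so the value of Aldh1a1 is uncertain to that extent.

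Aldh1a2 was at 14.62, 14.57 and 14.53 in LFBwt/wt and at 13.93, 13.74 and 14.30 in LFBD/D. The LFBwt/wt arrays were close together, and the LFBD/D arrays were spread wider and all lower. The means were 14.58 ± 0.05 and 13.99 ± 0.28, a log2 difference of −0.59 (s.e. 0.13, 95% interval −0.90 to −0.28, adjusted p 0.0273 in limma). The fold of 1.5 lay just past the threshold, and the call ended without replicate 1, 2 or 3 of LFBwt/wt (log2 difference −0.56, −0.59 and −0.61, adjusted p 0.0858, 0.0861 and 0.0744), without replicate 1 or 2 of LFBD/D (−0.56 and −0.46, adjusted p 0.0815 and 0.0492), after each array was centred on its median (−0.57), in the methods' t-test (adjusted p 0.155) and in the test against a fold change of 1.5. Mesothelial cells of the embryo also make Aldh1a2, and the mean over the mesothelial markers was lower in the same arrays, at 8.37 to 8.91 in LFBwt/wt and at 6.43, 6.54 and 6.17 in replicates 1, 2 and 3 of LFBD/D. The part of these cells in the fall of Aldh1a2 was not tested.

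Aldh1a3 was dim, at 5.40, 5.44 and 5.36 in LFBwt/wt and at 5.33, 5.25 and 5.49 in LFBD/D. The groups overlapped, and the log2 difference was −0.04 (95% interval −0.22 to 0.13). No detection measure was used here, so a value close to the array medians may be background, and a change in such a gene may be understated.

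**Figure D3:**
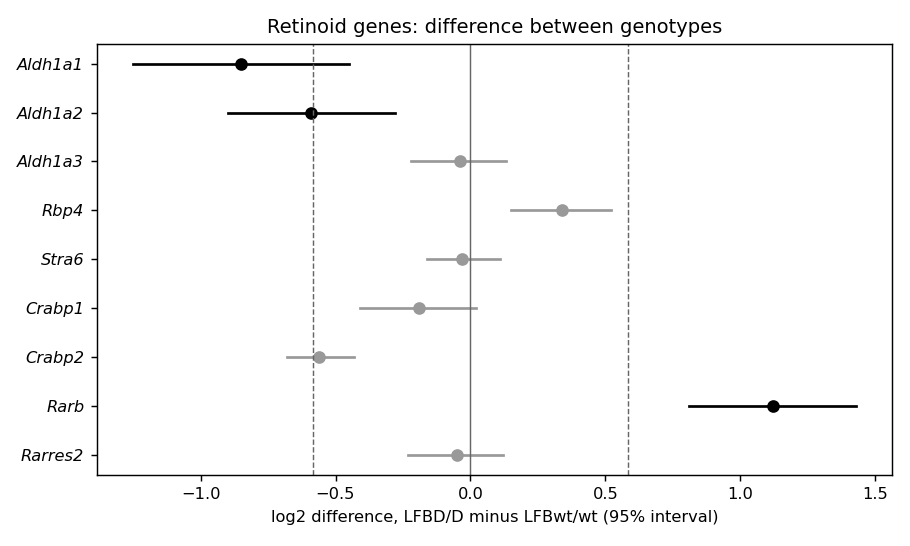
Log2 difference of LFBD/D minus LFBwt/wt (x axis) for each retinoid gene, with its 95% interval from limma, called genes in black and the others in grey, and dashed lines at a fold change of 1.5 in either direction. Rarb, at 1.12, is the one gene whose interval lies wholly past a dashed line, and the point of Aldh1a2, at −0.59, lies on the other.

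Retinol supply was followed through Rbp4 and Stra6. Rbp4 was at 6.0, 6.03 and 6.07 in LFBwt/wt and at 6.40, 6.50 and 6.22 in LFBD/D, with all LFBD/D values the higher. The log2 difference was 0.34 (s.e. 0.08, 95% interval 0.15 to 0.52, adjusted p 0.0303 in limma), which is 1.26-fold and under the fold threshold. Fat cells are a known source of Rbp4, and of 7 adipocyte markers 1 rose and 0 fell, with a mean over the list of 5.29 to 5.41 in LFBwt/wt and of 5.70 to 5.77 in LFBD/D. The one that rose was Fabp4, a fatty acid carrier that macrophages also express, from 8.49 ± 0.32 to 10.72 ± 0.19. Pparg, the receptor that drives fat cell formation, was 0.36 higher (adjusted p 0.0311 in limma), under the fold threshold, and the hormone gene Adipoq was below the array medians at 4.21 ± 0.03 and 4.18 ± 0.03. The part of fat cells in the value of Rbp4 was not tested. Stra6 was at 4.54, 4.44 and 4.47 in LFBwt/wt and at 4.40, 4.51 and 4.47 in LFBD/D, below the array medians and overlapping, with a difference of −0.03 (95% interval −0.16 to 0.11).

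Crabp2, which delivers retinoic acid to the receptors, was at 4.54, 4.57 and 4.53 in LFBwt/wt and at 3.97, 3.97 and 4.04 in LFBD/D. Arrays of a genotype lay within a narrow range, and the groups were well apart for so dim a gene. The log2 difference was −0.56 (s.e. 0.05, 95% interval −0.68 to −0.43, adjusted p 0.000811 in limma), or 1.47-fold lower, just short of the fold threshold, and it passed at −0.62 when arrays were aligned on the brighter named genes. All these values were below the array medians, so the change is understated if the level in LFBD/D alone was background. If the levels in both genotypes were background, the difference cannot be read as a change in Crabp2.

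Crabp1, which the study also used as a marker of matrix fibroblasts in tumours, was at 6.64, 6.62 and 6.59 in LFBwt/wt and at 6.30, 6.34 and 6.62 in LFBD/D. Replicate 3 of LFBD/D lay among the LFBwt/wt arrays while the other LFBD/D arrays were lower, and the difference of −0.19 (95% interval −0.41 to 0.02, adjusted p 0.242 in limma) did not pass. Fabp5, a fatty acid carrier that can also take retinoic acid to the receptor Ppard, rose from 8.68 ± 0.52 to 11.07 ± 0.38, a log2 difference of 2.39 (s.e. 0.28). Macrophages also express Fabp5, and the median leukocyte marker was 5.93-fold higher in LFBD/D. The part of macrophages in the rise of Fabp5 was not tested.

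Rarres2 encodes chemerin, a secreted attractant of leukocytes. It was at 4.50, 4.52 and 4.42 in LFBwt/wt and at 4.45, 4.54 and 4.30 in LFBD/D, with overlapping groups below the array medians and a difference of −0.05 (95% interval −0.23 to 0.12). Of its 3 receptors, Ccrl2, which binds chemerin without signalling, rose from 5.69 ± 0.27 to 7.44 ± 0.19, or by 1.76 in log2 units (s.e. 0.15). Cmklr1, a signalling receptor, was at 6.97 ± 0.27 and 7.08 ± 0.09 and did not pass. Gpr1 did not pass either, below the array medians at 3.97 ± 0.07 and 3.94 ± 0.04. Leukocytes express such receptors, and 15 of 18 leukocyte markers rose as well. The part of leukocytes in the values of these receptors was not tested.

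The arrays of a genotype did not order the members alike. Among the LFBD/D arrays, replicate 3 had the highest value for 6 of the 9 members, including Aldh1a1, Aldh1a2 and Rarb, and the lowest for 2, Rbp4 and Rarres2. It was thus nearest to LFBwt/wt for both dehydrogenases that fell and farthest from it for Rarb.

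Around the members, 60 of the 68 other pathway genes listed had their own cluster, of which 6 rose, 2 fell and 52 did not pass. This is 13.3% called, against 6.88% of all named genes, and 6 to 10 were called over all settings. The lists were chosen with earlier results of these arrays known, so this share is a description. In retinol transport and uptake, 1 of 8 rose and 1 fell. Stra6l, a relative of Stra6 that takes up retinol in mouse liver, rose from 5.90 ± 0.21 to 7.51 ± 0.12, a log2 difference of 1.62 (s.e. 0.11). Lrp2 (megalin), an endocytic receptor that binds the retinol carrier in kidney, fell by 1.85 (s.e. 0.19), from 7.20 ± 0.39 to 5.35 ± 0.16. In the same arrays 11 of 13 mesothelial markers fell, and the part of mesothelial cells in the fall of Lrp2 was not tested.

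Among the genes listed as oxidoreductases of retinol and retinal, with Aldh1a7 counted, 2 of 17 rose and 0 fell. Adh1, an alcohol dehydrogenase that oxidises retinol, rose from 5.87 ± 0.05 to 7.05 ± 0.19, a log2 difference of 1.17 (s.e. 0.10), and Dhrs9, a retinol dehydrogenase, rose by 0.87 (s.e. 0.06), from 4.91 ± 0.03 to 5.78 ± 0.08. Dhrs3, which reduces retinal back to retinol and is induced by retinoic acid, was bright at 15.62 ± 0.12 and 15.20 ± 0.19, and its difference of −0.42 (adjusted p 0.0439 in limma) was under the fold threshold. Rdh10, the retinol dehydrogenase needed in the embryo, differed by −0.42 (adjusted p 0.0955 in limma).

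None of the 4 genes of retinyl ester storage, the 3 of retinoic acid breakdown or the 6 receptor cofactors passed in limma. The smallest p in each list belonged to Dgat1, an acyltransferase (difference 0.20, adjusted p 0.409), Cyp26b1, a retinoic acid hydroxylase (−0.13, adjusted p 0.378), and Ncoa1, a coactivator (0.09, adjusted p 0.635). Lrat, the main retinol esterifying enzyme, was below the array medians at 3.88 ± 0.13 and 3.94 ± 0.12.

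Of 13 genes listed for their response to retinoic acid, 1 rose and 1 fell, or 15.4% called against 6.88% of all named genes. By sign alone, 9 differences were negative and 4 positive, with a median log2 difference of −0.35 where all named genes had 0.02 and all clusters 0.00. The share of negative signs over all named genes was not counted, and 3 of the 13 lay below the array medians. This list too was chosen with earlier results known, so its counts are a description. Gprc5a, a receptor of epithelium named for its induction by retinoic acid, rose by 1.09 (s.e. 0.16), from 8.39 ± 0.34 to 9.48 ± 0.08. Meis1, a homeobox transcription factor, fell by 1.05 (s.e. 0.09), from 11.52 ± 0.03 to 10.47 ± 0.17. Meis2, Nr2f2, Nr2f1 and Rarres1 were also lower, by 0.52, 0.45, 0.35 and 0.56, each under the fold threshold. Their adjusted p in limma was 0.00974, 0.00556, 0.013 and 0.0192. Tgm2, a transglutaminase, was at 14.64 ± 0.10 and 14.19 ± 0.43 with overlapping groups.

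**Figure D4:**
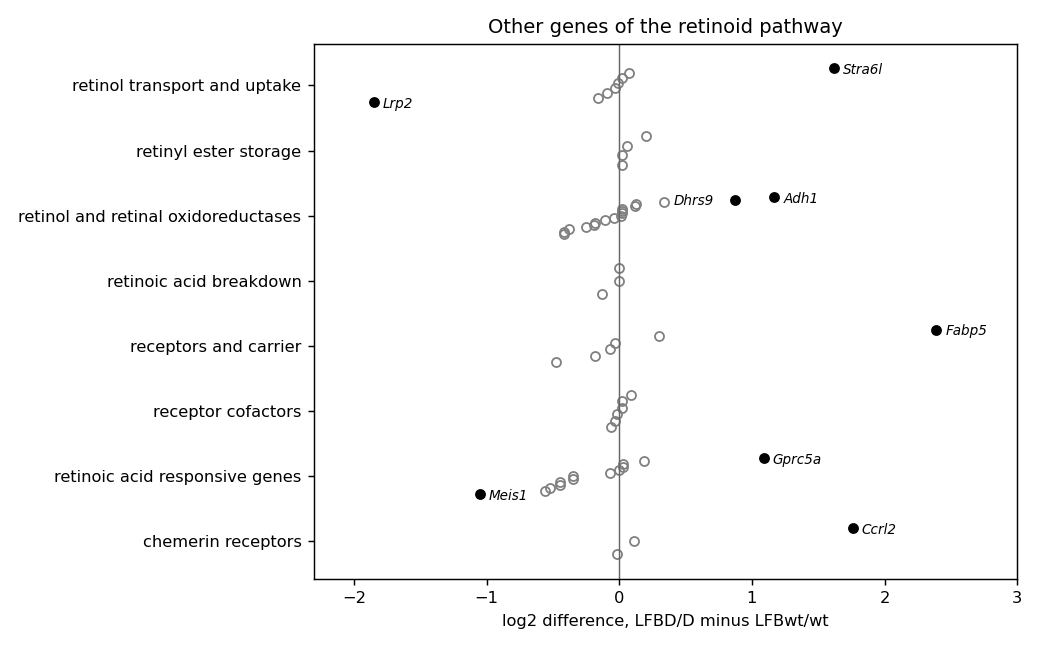
Log2 difference of LFBD/D minus LFBwt/wt (x axis) for the 60 other pathway genes measured, by list (y axis), with called genes filled and named and the others open. Fabp5 at 2.39 and Lrp2 at −1.85 are the farthest from 0, and 52 of the 60 genes are open.

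Likeness of pattern was described for the member with the largest rise and the one with the largest fall, by Pearson's r over the 6 arrays among 18207 other named genes at or above the median level. Closest to Rarb were Atp6v1d, a subunit of the vacuolar proton pump (r = 0.9997), Immp1l, a mitochondrial inner membrane protease subunit (r = 0.9996), and Uchl5, a proteasome-bound deubiquitinase (r = 0.9994), and 1664 genes had an r of at least 0.95. Closest to Aldh1a1 were Skida1 (r = 0.9957), Dixdc1, a regulator of Wnt signalling (r = 0.9954), and Psme4, a proteasome activator (r = 0.9947), and 161 genes reached 0.95. Skida1, at 5.48 ± 0.08 and 5.23 ± 0.07, and Dixdc1, at 5.44 ± 0.06 and 5.22 ± 0.05, were close to the array medians and were not called. With 2 genotypes and 6 arrays such values mostly follow the split by genotype, and the sizes differ, as Uchl5 rose by 1.06 on the log2 scale while Atp6v1d and Psme4 differed by 0.48 and −0.21.

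The promoter windows were also searched for TGATGNAAN, the composite motif through which ATF4 acts with C/EBP partners, on both strands. RefSeq windows were at hand for 6 of the 9 members. In the 250 bases before a start, Crabp1 had TGATGCAAC on the opposite strand from 135 to 127 bases before it, and Rbp4 had TGATGAAAT from 76 to 68 bases before 1 of its 2 starts. These are 2 of the members' 11 windows, where 3.44% of all windows had a match, and no match overlapped a DR5 or DR2 repeat. Of 623 named genes with this match 54 were called, or 8.67%, close to the 6.88% of all named genes.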

How the data were processed

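Total RNA of the 6 cultures was amplified, biotin-labelled and hybridised by the authors to Clariom D mouse arrays, 1 per sample. The log2 values the authors deposited come from RMA at the default settings of the Transcriptome Analysis Console, which corrects background, normalises by quantiles and gives each transcript cluster 1 value. Which version of the array's annotation was used is a detail not given in the sources used here. A quantile step hides a change in total RNA per cell. Values reached 18.88, and 458 to 527 clusters per array exceeded 16, the log2 ceiling of a 16-bit scanner, so folds hold on the deposited scale only, and levels of different genes cannot be compared.

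Of 65956 clusters, 30638 had 1 gene symbol, 2176 several and 33142 none here. Symbols were updated through a RefSeq table (assembly GRCm38.p6), used for names only, and a gene with several clusters was represented by the brightest. Promoter sequences are those of RefSeq for GRCm38.p6. Groups and replicate numbers came from the sample titles.

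A linear model with a genotype term alone was fitted to every cluster (limma 3.58.1, functions lmFit and eBayes, under R 4.3.3), and the Benjamini-Hochberg adjustment covered all clusters. The thresholds are those of the study's methods, which name no test for the arrays in particular. Their general statistics section names the t-test for experiments with 2 groups, here called the methods' t-test and run as an alternative. Intervals are 95% intervals of limma. The fits were run on simulated arrays with independent noise and scored without the fold threshold, so that run does not assess the calling rule. Alternatives were a replicate block, the methods' t-test, a trended and robust eBayes, a test against a fold change of 1.5, a filter on dim clusters, 2 other alignments of the arrays, and leaving out each array.

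The members and gene lists were chosen with earlier results of these data known. Named genes were the members, Atf4, up to 4 called genes of each pathway list or else the one with the smallest p, the first 2 markers of each list, and the 3 genes most like 2 members. Any further gene in the text was chosen for mention once its values were known. Of the 68 pathway genes, 8 were not analysed here for want of a cluster of their own.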

Additional observations from a re-analysis of the deposited data

How the results depend on the processing

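In all 13 other settings Rarb stayed higher and Aldh1a1 and Aldh1a2 lower in LFBD/D. The methods' t-test called 1647 clusters (844 higher, 803 lower) and 0 of the 9 members, although 5 had an unadjusted p under 0.05, with Rarb at 1.12, Aldh1a1 at −0.85 and Aldh1a2 at −0.59 (adjusted p 0.0502, 0.134 and 0.155). In the same t-test Crabp2 had an adjusted p of 0.0194, and its difference of −0.56 was under the fold threshold. The test against a fold change of 1.5 called 887 clusters (501 higher, 386 lower) and 0 members, with 1 at an unadjusted p under 0.05, at the same differences. Centring arrays on their medians left 1 member lower, as Aldh1a2 was at −0.57, and aligning arrays on brighter named genes added Crabp2 at −0.62. When arrays were left out in turn, 1 to 3 members were called, 1 higher each time and 0 to 2 lower, with Aldh1a1 at −1.03 to −0.75 and Aldh1a2 at −0.74 to −0.46. Aldh1a3 (−0.11 to 0.01), Stra6 (−0.05 to 0.01) and Rarres2 (−0.11 to 0.01) changed sign but were never called. Pathway genes called lower numbered 2 to 4, with 4 without replicate 3 of LFBD/D, and all pathway calls 6 to 10 over all settings.

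Same-numbered arrays did not deviate together from their group means (correlations −0.042, −0.008 and −0.222). Deviations of 3 arrays from their own mean cancel out, so this check cannot exclude a pairing by replicate number. With a replicate block 3060 clusters and the same 3 members were called, with Rarb at 1.12, Aldh1a1 at −0.85 and Aldh1a2 at −0.59 (adjusted p in limma 0.0128, 0.00925 and 0.0491). Not every array correlated best with the array of its own number. No member had a second cluster to try in place of its own. Of the 9 members, 6 lay within 2 log2 units of the median of all values, where a change may be understated.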
